A study of Mus musculus with 14 samples.

Results

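Vmn1r genes encode type 1 vomeronasal receptors, the pheromone receptors of the mouse vomeronasal organ, and a liver has no known use for them. All genes named Vmn1r plus a number were taken from array probe sets whose annotation gives exactly 1 gene symbol, and for each gene the probe set with the highest mean over the 14 arrays was kept. This gave 176 of the 22180 genes measured. The question was whether these genes, expected to be silent in liver, are read at a higher level when hepatocytes lack Lmna, the gene for lamin A and lamin C.

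The livers came from male mice on a C57BL/6 background, and every mouse, controls included, carried Alb-cre+, a Cre recombinase under the albumin promoter that acts in hepatocytes. Mice fed normal chow were LMNA +/+; Alb-cre+ (WT, 2 livers, 24.6 and 27 weeks old), LMNA flx/+; Alb-cre+ (HET, 3 livers, 24 to 26.4 weeks) or LMNA flx/flx; Alb-cre+ (KO, 3 livers, 38.9 weeks). Mice given the Surwit diet and drinking water with 42 g/L of a 55% fructose and 45% sucrose mixture (HFD) were HET (3 livers, 30 to 30.4 weeks) or KO (3 livers, 35.3 weeks). Both diets ran for 14 weeks. Arrays are named below by the letter and digit in their labels: G1 and N1 for WT, F1, F2 and P1 for HET on chow, H1, H2 and I1 for KO on chow, A2, B1 and B2 for HET on HFD, and C2, C3 and C4 for KO on HFD. On both diets the KO mice had the higher ages, with no overlap, so in every KO comparison genotype and age cannot be told apart. Ages did not overlap between the diets either, in HET or in KO, so diet and age cannot be told apart. Within a group age varied only among WT and HET livers. A linear age term, used below as an alternative, rests on these few livers. A call lost or kept with it cannot separate age from genotype. RNA was taken from whole liver, in which other cells keep Lmna, and fewer cells of a type and less RNA per cell cannot be told apart.

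In the vomeronasal organ each sensory neuron expresses 1 receptor gene of a large, clustered family, and Vmn1r receptors signal through the G protein Gnai2 and the channel Trpc2. In other tissues such gene clusters are typically packed as heterochromatin, and much of that chromatin touches the nuclear lamina, the protein mesh of lamins under the nuclear envelope. Clusters of chemoreceptor genes are a common example of lamina-associated, AT-rich and transcriptionally silent DNA, which makes them a natural place to look for derepression when a lamin is lost.

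The sequences below show the 250 bases before the annotated start of 6 members, from RefSeq on GRCm38.p6, each written 5' to 3' on the gene's strand. The first 4 were chosen because Vmn1r127 and Vmn1r159 have unusually bright probe sets while Vmn1r94 and Vmn1r122, which are nearly the same upstream, do not. Capitals in these 4 mark the 9 positions at which they differ. They lie at chr7:20168378-20168627 (Vmn1r94), chr7:21319862-21320111 (Vmn1r127), chr7:21134129-21134378 (Vmn1r122) and chr7:22843606-22843855 (Vmn1r159), all on the minus strand.
Vmn1r94: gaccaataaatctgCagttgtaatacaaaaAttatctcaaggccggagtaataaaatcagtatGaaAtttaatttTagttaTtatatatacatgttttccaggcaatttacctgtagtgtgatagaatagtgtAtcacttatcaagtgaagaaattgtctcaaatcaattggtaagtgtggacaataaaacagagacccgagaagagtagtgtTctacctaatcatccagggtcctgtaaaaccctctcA
Vmn1r127: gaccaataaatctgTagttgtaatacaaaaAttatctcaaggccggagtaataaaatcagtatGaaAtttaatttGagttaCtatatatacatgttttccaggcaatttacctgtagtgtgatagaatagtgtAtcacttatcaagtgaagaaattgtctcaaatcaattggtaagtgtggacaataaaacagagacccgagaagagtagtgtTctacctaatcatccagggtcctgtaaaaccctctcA
Vmn1r122: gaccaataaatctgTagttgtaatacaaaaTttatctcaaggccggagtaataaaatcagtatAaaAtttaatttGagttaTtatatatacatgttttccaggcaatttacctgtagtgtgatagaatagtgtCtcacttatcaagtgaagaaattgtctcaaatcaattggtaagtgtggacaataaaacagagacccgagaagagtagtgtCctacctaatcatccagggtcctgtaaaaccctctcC
Vmn1r159: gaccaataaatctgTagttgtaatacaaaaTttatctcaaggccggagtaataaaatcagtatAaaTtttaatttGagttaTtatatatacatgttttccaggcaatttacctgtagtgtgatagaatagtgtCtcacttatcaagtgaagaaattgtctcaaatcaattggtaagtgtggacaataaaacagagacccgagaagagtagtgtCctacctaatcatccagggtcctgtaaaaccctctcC
Over these 250 bases Vmn1r127 matched Vmn1r94 at 98.8% of positions and Vmn1r159 matched Vmn1r122 at 99.6%, compared without gaps. The other pair shows the brightest member and the member with the lowest KO minus HET difference over both diets, with CG dinucleotides in capitals. Vmn1r233 lies at chr17:20994687-20994936 on the minus strand, and Vmn1r179 at chr7:23928136-23928385 on the plus strand.
Vmn1r233: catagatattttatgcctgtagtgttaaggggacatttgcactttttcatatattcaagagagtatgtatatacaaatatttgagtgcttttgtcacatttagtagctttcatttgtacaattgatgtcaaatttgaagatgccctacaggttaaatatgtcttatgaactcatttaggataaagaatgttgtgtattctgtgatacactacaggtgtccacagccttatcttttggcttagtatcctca
Vmn1r179: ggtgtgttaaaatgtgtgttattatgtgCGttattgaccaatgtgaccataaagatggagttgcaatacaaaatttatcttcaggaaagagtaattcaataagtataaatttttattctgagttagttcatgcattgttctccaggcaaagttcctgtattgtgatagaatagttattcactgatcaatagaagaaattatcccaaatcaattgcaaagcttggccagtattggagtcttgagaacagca
The stretch before Vmn1r233 held 0 CG dinucleotides and that before Vmn1r179 held 1.

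As a check of the labels, the probe set of Lmna read 4.50 and 4.43 in WT, 4.29, 4.40 and 4.25 in HET on chow and 4.09, 3.78 and 3.67 in KO on chow, on a log2 scale. On HFD it read 4.07, 4.07 and 4.30 in HET and 3.90, 4.07 and 3.99 in KO. The KO arrays lay below the controls on chow and met the HET range on HFD. Averaged over both diets, KO minus HET was -0.31 ± 0.09 (± is the standard error of a difference throughout; limma, adjusted p = 0.0386). This call was lost without any single HET array other than P1, and without H2, I1, C2 or C4 (adjusted p = 0.0511 to 0.1005). It was also lost with a trended and robust variance prior and with the age term. Within a diet KO minus HET passed neither on chow (-0.47 ± 0.12, adjusted p = 0.0823) nor on HFD (-0.16 ± 0.12, adjusted p = 0.517). Which part of Lmna was floxed and where its probe set lies are not given, so this check is partial. Cidea, a lipid droplet protein scarce in lean liver, shows that a dim gene could be seen to rise on these arrays: it read 1.72 to 2.71 in the 8 WT and HET livers and 7.03 to 9.63 in the 6 KO livers. Hepatocyte markers were high on all arrays, with Alb, the gene of serum albumin, at 13.36 to 13.53.

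Almost all Vmn1r genes were read at the dim end of the array in all 5 groups. Their means over the 14 arrays ran from 0.74 to 11.68 with a median of 1.19, and the median of all genes on an array lay between 2.90 and 3.18. Of the 176 members, 173 had a mean below that of the all-gene medians, 171 were below the all-gene median on every array, and 140 stayed under 2 on every array. On each array 78.98% to 89.2% of the members lay in the lowest 25% of genes. Part of such a position is set by how well a probe binds its target, so levels of different probe sets are not compared as amounts of RNA.

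The median level of the members was nearly the same from liver to liver. It was 1.20 and 1.10 in WT, 1.23, 1.19 and 1.16 in HET on chow, 1.15, 1.25 and 1.13 in KO on chow, 1.20, 1.32 and 1.23 in HET on HFD, and 1.21, 1.18 and 1.14 in KO on HFD. The KO arrays lay inside the range of the other arrays, and the highest of all was HET array B1. As group means these are 1.15 ± 0.07 (SD, n = 2), 1.19 ± 0.04, 1.18 ± 0.06, 1.25 ± 0.06 and 1.18 ± 0.04 (SD, n = 3 each). Array B1 was also the highest for the medians of Vmn2r genes (1.27) and of olfactory receptor genes (1.33) and of Krtap and Prl genes, but not for Tas2r (G1), Taar (F1) or Defb (H2) genes. The source of its height was not tested.

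**Figure D1:**
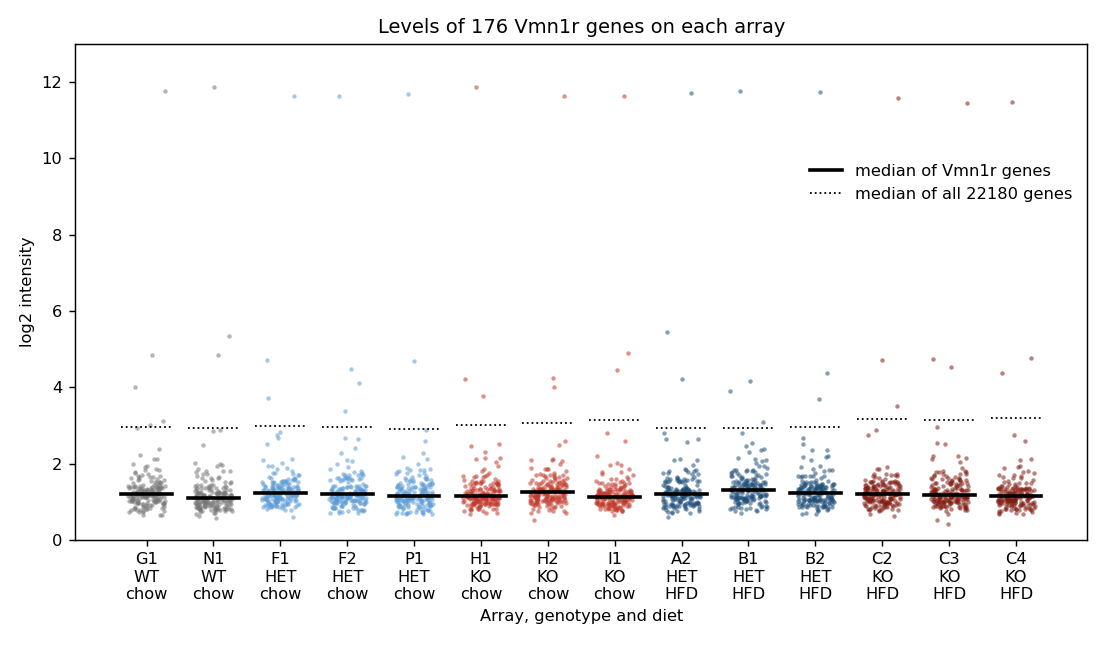
Log2 intensity (y axis) of each of the 176 Vmn1r genes (points, spread sideways for view) on each of the 14 arrays (x axis), coloured by group. Thick lines, the member medians, lie between 1.10 and 1.32, and dotted lines, the all-gene medians, between 2.90 and 3.18. The points near 11.7 on all arrays are Vmn1r233.

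Only 3 members had a mean above the level of the median gene: Vmn1r233 (11.68), Vmn1r127 (4.60) and Vmn1r159 (4.05). The next were Vmn1r43 (2.78), Vmn1r7 (2.58), Vmn1r170 (2.17), Vmn1r213 (2.03) and Vmn1r177 (1.91). None of these 8 passed the adjusted threshold in any of the 8 comparisons.

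Vmn1r233 read 11.76 and 11.88 in WT, 11.64, 11.65 and 11.70 in HET on chow, 11.87, 11.65 and 11.63 in KO on chow, 11.72, 11.76 and 11.73 in HET on HFD and 11.59, 11.45 and 11.48 in KO on HFD. It was bright in every liver, and only on HFD did all KO arrays lie below all HET arrays (-0.23 ± 0.10, adjusted p = 0.198). A second probe set assigned to Vmn1r233 read 1.04 to 1.99, so its probe sets disagree over the level of this gene by far more than any group difference. Where their probes lie, and which transcript the bright one reads, is not known from the files used here. In the gene table Vmn1r233 stands on chromosome 17 between a Vmn1r pseudogene and the zinc finger gene Zfp160 (mean 5.45), with Ppp2r1a, a phosphatase subunit (mean 9.53), beyond the pseudogene.

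Vmn1r127 read 4.84 and 5.35 in WT, 4.72, 4.49 and 4.69 in HET on chow, 4.23, 4.02 and 4.46 in KO on chow, 5.44, 4.17 and 4.38 in HET on HFD, and 4.71, 4.52 and 4.37 in KO on HFD. On chow the KO arrays were all below the HET and WT arrays (KO minus WT -0.86 ± 0.30, adjusted p = 0.240), and on HFD KO and HET overlapped. Without HET array A2 the difference from WT had an adjusted p of 0.0400. Vmn1r159 read 4.01 and 4.86 in WT, 3.73, 4.12 and 2.27 in HET on chow, 3.78, 4.25 and 4.90 in KO on chow, 4.23, 3.90 and 3.70 in HET on HFD, and 3.52, 4.74 and 4.77 in KO on HFD. Its ranges overlapped between KO and HET on both diets, and HET array P1 was far below the rest. The 7 probe sets that name Vmn1r127 together with other genes, and the 9 that name Vmn1r159 so, had means of 1.20 to 1.49, some of these sets repeating the values of another. Vmn1r94 and Vmn1r122, whose upstream sequences are printed above beside theirs, had means of 1.43 and 1.09.

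Between KO and HET livers on chow no Vmn1r gene passed the adjusted threshold of 0.05. In this comparison 1.92% of all genes passed it, and among the members the smallest adjusted p was 0.125, of Vmn1r119. At an unadjusted p under 0.05, 1 member (0.568%) was higher and 6 (3.41%) were lower in KO, against 7.58% of all genes higher and 5.80% lower. The median KO minus HET difference of the members was -0.03, beside -0.01 over all genes, and 70 were above 0 and 106 below.

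The single member higher in KO on chow at the unadjusted threshold was Vmn1r210. It read 0.79, 0.73 and 0.90 in HET and 1.66, 1.26 and 0.86 in KO on chow, with 0.73 and 1.08 in WT. KO array I1 lay within the HET range, and the difference was 0.45 ± 0.17 (adjusted p = 0.259). On HFD the same gene read 0.76, 1.03 and 0.89 in HET and 0.89, 0.75 and 0.73 in KO and KO did not lie above HET. Below 0 the lowest p belonged to Vmn1r119, at 2.01, 2.68 and 2.13 in HET and 1.41, 1.57 and 1.78 in KO on chow (-0.68 ± 0.20, adjusted p = 0.125). Its WT arrays, at 1.41 and 1.72, lay below all HET arrays on chow. Vmn1r57 differed by -0.51 ± 0.15 (adjusted p = 0.141), with 1.86, 1.57 and 1.62 in HET and 1.07, 1.49 and 0.97 in KO.

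On HFD 1 Vmn1r gene passed, and it was lower in KO, while 7.56% of all genes passed. Vmn1r179 read 2.65, 1.82 and 2.17 in HET on HFD and 1.52, 1.43 and 1.35 in KO on HFD. All KO arrays lay below all HET arrays (-0.78 ± 0.19, adjusted p = 0.0241). On chow it read 1.79, 1.75 and 1.49 in HET, 1.47, 1.23 and 1.77 in KO and 1.83 and 1.81 in WT. There KO overlapped HET but lay below both WT arrays. HET arrays A2 (2.65) and B2 (2.17) on HFD thus held the highest values of the gene, while B1 (1.82) lay close to both WT arrays. HFD minus chow in HET was 0.54 ± 0.19 (adjusted p = 0.336). The HFD call of Vmn1r179 was lost without A2, B2, C2, C3 or C4 (adjusted p = 0.0798, 0.0515, 0.0557, 0.0625 and 0.0871), and the difference was -0.56 without A2. It was also lost with the age term and in a fit of only the arrays compared, in which Vmn1r148 passed instead, lower in KO (-0.53 ± 0.12, adjusted p = 0.0415). Without A2, Vmn1r66 passed instead, lower in KO (-0.67 ± 0.16, adjusted p = 0.0329), and without B1 so did Vmn1r34 (-0.94 ± 0.18, adjusted p = 0.0129).

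At an unadjusted p under 0.05, 3 members (1.70%) were higher and 10 (5.68%) lower in KO on HFD, against 11.7% of all genes higher and 8.82% lower. The median difference was -0.08, beside -0.02 over all genes. Vmn1r53 had the smallest p of the 3 higher ones, at 1.32, 1.31 and 1.34 in HET and 1.47, 2.19 and 1.92 in KO (0.53 ± 0.20, adjusted p = 0.141). Its groups did not overlap on HFD, but on chow KO was 2.14, 1.32 and 1.48 against 1.60, 1.71 and 1.66 in HET. Vmn1r122 was higher by 0.24 ± 0.10 (adjusted p = 0.225), with 0.92, 0.84 and 0.94 in HET and 1.32, 1.04 and 1.04 in KO, and Vmn1r64 by 0.24 ± 0.11 (adjusted p = 0.238). Below 0 Vmn1r32 followed Vmn1r179 with 1.39, 1.14 and 1.11 in HET and 0.82, 0.85 and 0.74 in KO (-0.41 ± 0.12, adjusted p = 0.0549). It passed with a trended and robust variance prior (adjusted p = 0.0320) and with array weights (adjusted p = 0.0358).

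Averaged over both diets, which uses 6 KO and 6 HET livers, 1 member passed, again Vmn1r179 and again lower (-0.48 ± 0.13, adjusted p = 0.0382), while 9.43% of all genes passed. At the unadjusted threshold 1 member (0.568%) was higher (Vmn1r122, 0.17 ± 0.07, adjusted p = 0.202) and 12 (6.82%) were lower, against 12.5% and 9.66% of all genes. No member had all 6 KO arrays above all 6 HET arrays, as 3.13% of all genes did, and none had all 6 below, as 1.51% did. The median difference of the members was -0.04, beside -0.02 over all genes, with 61 members above 0 and 115 below.

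Each 95% interval bounds the measured difference of a single member and was not widened for the number of members. In KO against HET on chow its upper end was 1 or more for 2 members (highest 1.95), and on HFD for 1 (highest 1.41). For 175 of 176 members the upper end of the 95% interval of KO minus HET over both diets lay under 1, which is a 2-fold rise on the log2 scale, and the median upper end was 0.17. The exception was Vmn1r159, at 0.67 ± 0.33 with an upper end of 1.38 (adjusted p = 0.259), and its difference was 0.39 without the low HET array P1. A log2 difference near the dim end of an array understates a true change, so these bounds hold for the measured intensity and not for RNA amounts. Next after Vmn1r159 came Vmn1r115 (0.29 ± 0.20), Vmn1r53 (0.26 ± 0.14), Vmn1r2 (0.25 ± 0.13), Vmn1r15 (0.23 ± 0.16), Vmn1r234 (0.20 ± 0.10), Vmn1r35 (0.18 ± 0.13) and Vmn1r210 (0.17 ± 0.12), none of which passed. At the other end, after Vmn1r179, came Vmn1r119 (-0.39 ± 0.14), Vmn1r20 (-0.37 ± 0.14), Vmn1r66 (-0.37 ± 0.12), Vmn1r193 (-0.35 ± 0.21), Vmn1r94 (-0.34 ± 0.16), Vmn1r188 (-0.33 ± 0.14) and Vmn1r80 (-0.33 ± 0.23), none of which passed either. Vmn1r80 rested on HET array F1, at 2.50 beside at most 1.04 on every other array, and its difference was -0.06 without it. Leaving out a single array also shrank the difference of Vmn1r15 to 0.07 (C3), Vmn1r35 to 0.08 (H1), Vmn1r210 to 0.07 (H1), Vmn1r53 to 0.14 (H1), Vmn1r115 to 0.14 (H2) and Vmn1r193 to -0.17 (F2).

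**Figure D2:**
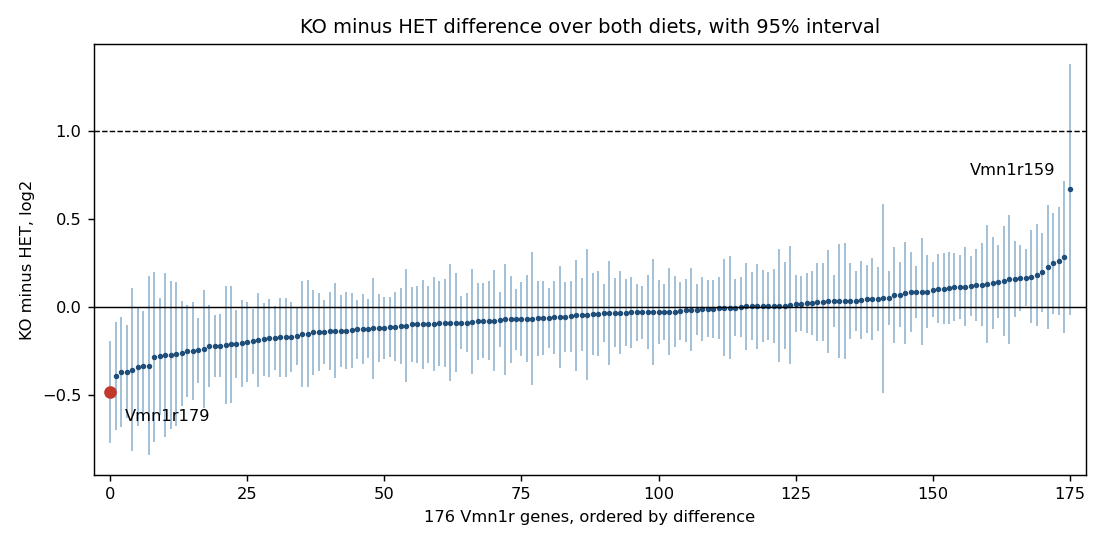
KO minus HET difference over both diets (y axis, log2) of the 176 Vmn1r genes, ordered from lowest to highest (x axis), each with its 95% interval from limma. The red point is Vmn1r179, the only member with an adjusted p under 0.05, and the dashed line at 1 is a 2-fold rise, which only the interval of Vmn1r159 crosses.

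The call of Vmn1r179 over both diets was lost without any 1 array except P1, I1 and B1 (adjusted p = 0.0507 to 0.0925). A fit of only the arrays compared (adjusted p = 0.0507), a second quantile normalization (adjusted p = 0.0630) and a linear term for age (adjusted p = 0.588) ended it as well, and the age term moved the members' median difference to -0.32. In single fits that left out 1 array, other members passed and were lower in KO: Vmn1r94 without F1 (-0.49 ± 0.11, adjusted p = 0.0216), Vmn1r66 without A2 (-0.46 ± 0.11, adjusted p = 0.0213), Vmn1r34 without B1 (-0.47 ± 0.12, adjusted p = 0.0349) and Vmn1r119 without C3 (-0.50 ± 0.13, adjusted p = 0.0309). Without KO array H2, Vmn1r2 passed and was higher in KO (0.38 ± 0.09, adjusted p = 0.0277). That was the only higher member among 226 counts over all comparisons and settings at an adjusted threshold. A lower member was held by 63 of them. These counts come from overlapping refits of the same arrays, and many repeat a call of Vmn1r2 against WT or of Vmn1r179. They are not independent, so their tally cannot weigh 1 direction against the other.

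How arrays are scaled matters for the size of these differences. Centring each array on its own all-gene median lowers every gene's KO minus HET difference by 0.12 on chow, by 0.22 on HFD and by 0.17 over both diets, and lowers KO minus WT by 0.13. With it 25 members on HFD (14.2%, beside 20.1% of all genes) and 42 members over both diets (23.9%, beside 26.9%) passed, all lower in KO. The split of all called genes into higher and lower moved from 320 and 106 to 248 and 261 on chow, from 1221 and 456 to 915 and 3543 on HFD, from 1447 and 644 to 1059 and 4906 over both diets, and from 276 and 91 to 213 and 147 against WT. The distance of the members' median from that of all genes does not change with centring: it was -0.02 on chow, -0.06 on HFD and -0.02 over both diets. Unlike the all-gene median, the median over all probe sets was lower in KO than in HET. It was 2.22 to 2.26 against 2.27 to 2.28 on chow, and 2.21 to 2.23 against 2.26 to 2.30 on HFD. Centring on it was not done and would shift KO minus HET upward, so the calls added by centring depend on the median chosen.

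Against WT on chow 1 Vmn1r gene passed, lower in KO, beside 1.65% of all genes. Vmn1r2, on chromosome 4, read 3.11 and 2.86 in WT, 1.76, 1.79 and 1.77 in HET on chow and 2.30, 1.48 and 2.21 in KO on chow. On HFD it read 1.33, 1.29 and 1.66 in HET and 1.73, 1.58 and 1.79 in KO. Both WT livers lay above all 12 others. KO minus WT was -0.99 ± 0.21 (adjusted p = 0.0314), and HET minus WT was -1.21 ± 0.21 (unadjusted p = 6.37e-05, adjusted p = 0.357), so the livers with 1 floxed copy were at least as far from WT in the measured mean as those with 2. KO minus HET ran the other way, at 0.22 ± 0.19 on chow and 0.27 ± 0.19 on HFD, and passed on neither diet (adjusted p = 0.677 and 0.449). The call against WT was lost without G1, N1 or C2 (adjusted p = 0.200, 0.113 and 0.0509). It was also lost with an age term, with only the compared arrays fitted, and with WT and HET as 1 control group. With only 2 WT livers the spread in WT is poorly known.

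**Figure D3:**
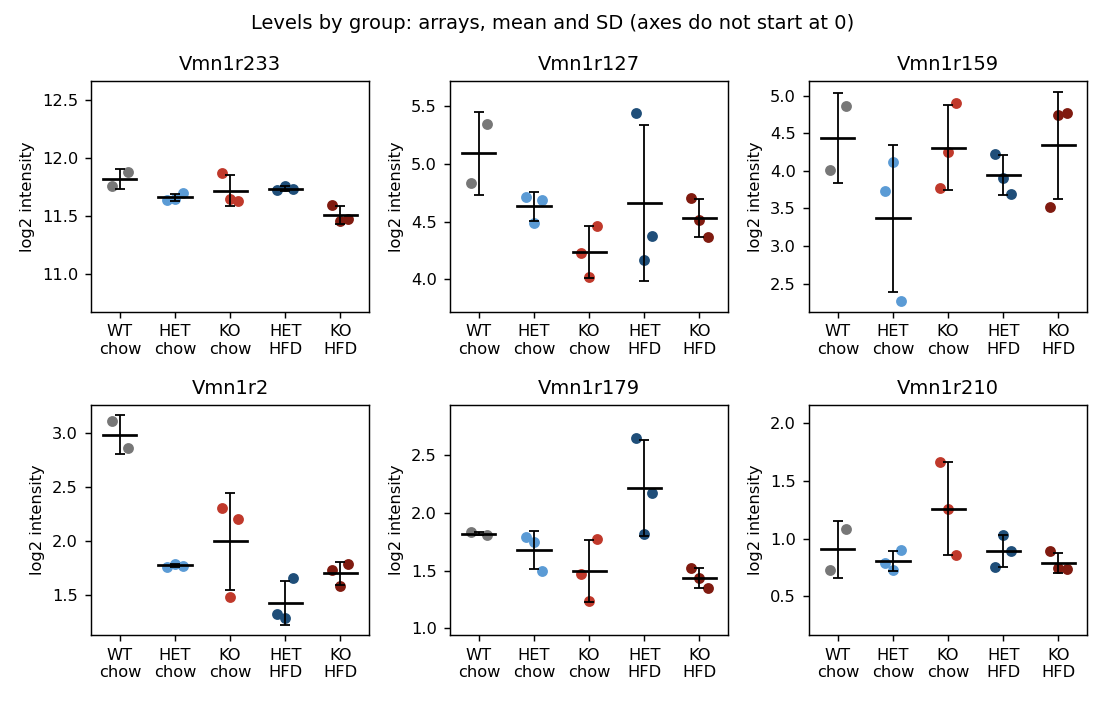
Log2 intensity (y axis) by group (x axis) of 6 members: the 3 brightest, both members with an adjusted p under 0.05 in a comparison (Vmn1r2 and Vmn1r179), and Vmn1r210. Points are arrays, thick bars group means and whiskers 1 SD; the axes do not start at 0. Both WT arrays of Vmn1r2 lie above all others, and HET arrays A2 and B2 on HFD hold the highest values of Vmn1r179.

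At the unadjusted threshold 0 members were higher and 3 (1.70%) lower in KO than in WT, against 7.00% and 4.77% of all genes. Among those above 0 the smallest p belonged to Vmn1r19 (0.30 ± 0.14) and the next to Vmn1r216, whose groups read 1.07 and 0.91 in WT and 1.31, 1.25 and 1.19 in KO. The median difference from WT was 0.03, beside 0.00 over all genes, with 112 members above 0 and 64 below, while KO minus HET on chow had 70 above 0. That balance turned with arrays centred on their median, which left 45 members above 0 against WT and 35 against HET. Vmn1r77 passed without G1 (-1.03 ± 0.19, adjusted p = 0.0245) and Vmn1r14 without N1 (-0.96 ± 0.18, adjusted p = 0.0347). In these fits WT is a single array, assumed to vary like the other groups, and each call follows 1 high WT array: Vmn1r77 read 1.94 in N1 and 0.84 in G1, and Vmn1r14 read 2.11 in G1 and 1.06 in N1. Vmn1r127 passed without A2, as given above. HET against WT gave 0 calls among the members and 0% among all genes in limma. There 5 members (2.84%) were higher and 3 (1.70%) lower at the unadjusted threshold, against 2.21% and 2.09% of all genes. They were led by Vmn1r119 (0.71 ± 0.22), Vmn1r64 (0.35 ± 0.12), Vmn1r2 and Vmn1r172 (-0.47 ± 0.18). Without H2 the HET minus WT difference of Vmn1r2 passed (adjusted p = 0.0348). The members' median HET minus WT was 0.05, beside 0.01 over all genes.

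No Vmn1r gene passed the adjusted threshold between the diets. On HFD the HET livers were older than on chow (30 to 30.4 against 24 to 26.4 weeks). The KO livers were younger on HFD (35.3 against 38.9 weeks), so diet and age cannot be told apart here. HFD against chow called 0 members in HET, beside 0.198% of all genes, and 0 in KO, beside 0.316%. In HET 8 members (4.55%) were higher and 3 (1.70%) lower on HFD at the unadjusted threshold, against 4.78% and 5.46% of all genes. In KO 1 (0.568%) was higher and 6 (3.41%) lower, against 6.12% and 4.95%. The largest difference above 0 in HET was that of Vmn1r221, at 0.92, 0.71 and 0.81 on chow and 1.19, 2.37 and 1.28 on HFD (0.80 ± 0.24, adjusted p = 0.258). B1 alone carried the high value there. Vmn1r50 read 1.31, 1.09 and 1.34 on chow and 1.79, 1.51 and 1.49 on HFD (0.35 ± 0.12, adjusted p = 0.321), with no overlap. Below 0 in HET stood Vmn1r57 (-0.37 ± 0.15) and Vmn1r229 (-0.34 ± 0.15). In KO the smallest p belonged to Vmn1r210 (-0.47 ± 0.17) and Vmn1r79 (-0.31 ± 0.12) below 0, and to Vmn1r64 (0.28 ± 0.11) and Vmn1r14 (0.44 ± 0.21) above it. The median of the members was 0.05 in HET and 0.00 in KO, beside 0.00 over all genes in each.

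The interaction, KO minus HET on HFD minus the same on chow, called 0 members, beside 0.0361% of all genes. At the unadjusted threshold 3 members (1.70%) were above 0 and 7 (3.98%) below, against 5.26% and 4.60% of all genes. They included Vmn1r64 (0.43 ± 0.15) and Vmn1r57 (0.57 ± 0.22) above, and Vmn1r47 (-0.42 ± 0.16) and Vmn1r10 (-0.46 ± 0.19) below. Over all 5 groups together limma's F test called 1 member, Vmn1r2, beside 6.91% of all genes. At an unadjusted p under 0.05 it listed 6 members, which is 3.41% of them, beside 20.3% of all genes.

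**Figure D4:**
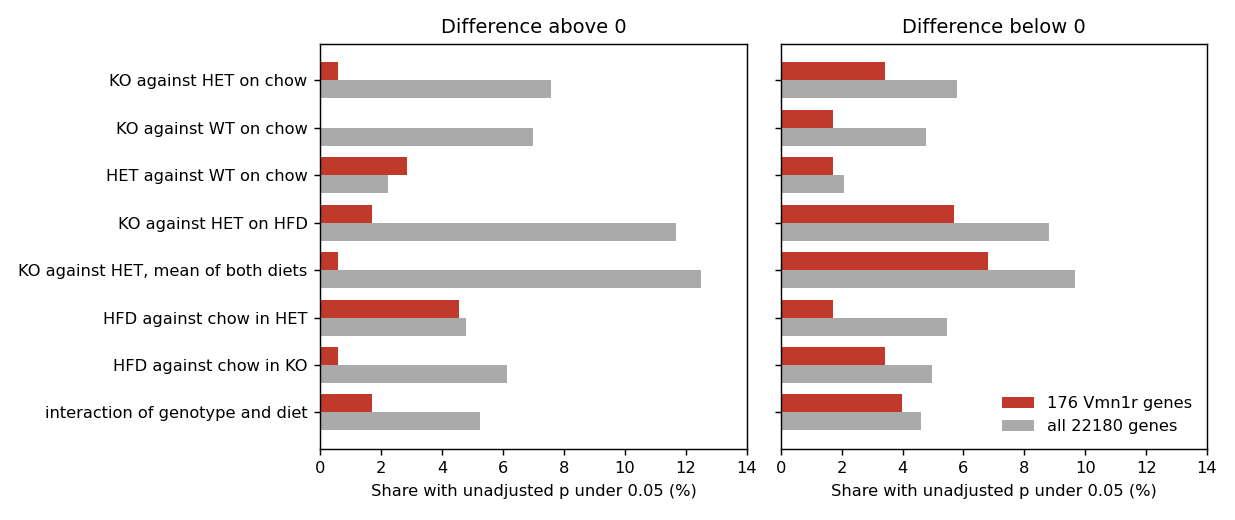
Share of genes (x axis, %) with an unadjusted p under 0.05 from limma in each of 8 comparisons (y axis), for the 176 Vmn1r genes (red) and all 22180 genes (grey), with differences above 0 on the left and below 0 on the right. In KO against HET over both diets the shares above 0 are 0.568% of the Vmn1r genes and 12.5% of all genes.

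The members did not vary more than other genes. Their residual SD had a median of 0.17, beside 0.19 over all genes, and the median standard error of KO minus HET over both diets was 0.10, beside 0.11. Differences of dim probe sets are compressed on this scale, and the part of this in the low shares was not tested.

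Some probe sets read several Vmn1r genes at once. There were 28 sets that name only Vmn1r genes but more than 1 of them, and none passed in any of the 8 comparisons. Some hold the same values to 4 decimals on all 14 arrays, which leaves 20 distinct sets, a reduction made after the values were seen, while no member repeats another in this way. The median level of the 20 was 1.18 and 1.18 in WT, 1.16, 1.29 and 1.21 in HET on chow, 1.20, 1.25 and 1.21 in KO on chow, 1.72, 1.48 and 1.27 in HET on HFD and 1.16, 1.15 and 1.44 in KO on HFD. The HET arrays A2 and B1 were the highest, followed by KO array C4. At an unadjusted p under 0.05, 5 of the 20 were higher on HFD than on chow in HET, beside 4.78% of all genes, and 3 were lower in KO than in HET on HFD, beside 8.82%. Distinct sets still share target genes and are not independent of each other. Of the 3 members with a second probe set of their own, Vmn1r208 (1.30 and 1.20) and Vmn1r212 (1.10 and 1.06) were dim in both, unlike Vmn1r233.

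The receptor genes sit in a few chromosomal clusters, with 74 of the members on chromosome 7, 51 on chromosome 6, 33 on chromosome 13 and 14 on chromosome 17. The median level of a cluster's members lay between 1.13 on chromosome 13 and 1.21 on chromosome 7. The median KO minus HET difference over both diets was -0.03 on chromosomes 6 and 7, -0.04 on chromosome 13 and -0.09 on chromosome 17. Of the members above 0 there were 21 on chromosome 6, 23 on chromosome 7, 12 on chromosome 13 and 3 on chromosome 17. No cluster held more than 1 member higher in KO at the unadjusted threshold in this comparison.

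Other gene families that a liver has no known use for were read at similar levels, with medians on each array of 1.10 to 1.27 for Vmn2r genes and 1.16 to 1.33 for olfactory receptor genes. Over both diets 9.43% of all genes passed. Of 109 Vmn2r genes, the type 2 vomeronasal receptors, 0 rose and 1 fell (Vmn2r4, -0.34 ± 0.08, adjusted p = 0.0143), which is 0.917%. Of 1088 olfactory receptor genes 0.735% passed. Of these 1 rose (Olfr12, 0.44 ± 0.11, adjusted p = 0.0274) and 7 fell, among them Olfr1373 (-0.59 ± 0.12, adjusted p = 0.00717) and Olfr1034 (-0.57 ± 0.13, adjusted p = 0.0169). Olfr1034, with a mean of 6.17, was not dim. None passed among 35 bitter taste receptors (Tas2r), 15 trace amine receptors (Taar), 48 keratin-associated proteins (Krtap) and 20 genes of the prolactin family (Prl). Of 41 beta-defensins 1 rose (2.44%), Defb1 (1.57 ± 0.21, adjusted p = 4.40e-04), an antimicrobial peptide gene of epithelia. Its mean, 3.69, lay above the level of the median gene. Within a diet Defb1 passed on HFD (2.24 ± 0.30, adjusted p = 7.13e-04) and not on chow. The calls of Vmn2r4, Olfr1373, Olfr1034 and Defb1 held without any 1 array. With the age term those of Vmn2r4 (adjusted p = 0.948), Olfr1373 (adjusted p = 0.798) and Olfr1034 (adjusted p = 0.202) were lost. Defb1 then turned to -1.41 ± 1.02, beside a standard error of 0.21 without the age term, and did not pass. The call of Olfr12 was lost with that term, with centred arrays and without F1, P1, H2, I1, B2, C3 or C4 (adjusted p = 0.0509 to 0.0663). The median KO minus HET difference was -0.03 for Vmn2r genes and -0.05 for olfactory receptor genes.

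Genes of vomeronasal and olfactory sensory neurons were listed to see whether their signalling machinery was read in these livers. Over both diets 2 of 23 measured genes rose and 0 fell, which is 8.70% beside 9.43% of all genes. They were Robo2, an axon guidance receptor (0.50 ± 0.09, adjusted p = 0.00353), and Itpr3, an inositol trisphosphate receptor (0.77 ± 0.22, adjusted p = 0.0450). The call of Itpr3 was lost without any 1 array except C2, C3 and C4 (adjusted p = 0.0529 to 0.114) and under 7 other alternatives. With the age term Robo2 turned to -0.056 ± 0.56 and did not pass. On HFD 1 rose, again Robo2 (0.54 ± 0.13, adjusted p = 0.0227), and 1 fell, Ncam2, an adhesion protein (-0.76 ± 0.21, adjusted p = 0.0458). Together these were 8.70% of the list, beside 7.56% of all genes. The call of Ncam2 was lost without F1, F2, H1, H2, I1, A2, B2, C2, C3 or C4 (adjusted p = 0.0511 to 0.144). Omp, the olfactory marker protein, was dim at 1.12 to 2.47, and the channel gene Trpc2 was read at 3.28 to 4.03. Gnai2 was bright at 8.18 to 8.74, and it is also expressed in many other cells.

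Among genes that build the lamina, tether chromatin to it or lay down heterochromatin marks, 1 of 22 measured rose and 2 fell over both diets. Hdac3, a histone deacetylase that works with lamina proteins, rose (0.41 ± 0.08, adjusted p = 0.00585), a call lost with arrays centred on their median and with the age term. Setdb1, a histone H3 lysine methyltransferase, fell (-0.31 ± 0.08, adjusted p = 0.0318), as did Lmna. The call of Setdb1 was lost without F1, F2, H2, I1, A2, B1, C3 or C4 (adjusted p = 0.0636 to 0.0766) and with the age term. Of the whole list 13.6% passed, beside 9.43% of all genes. This share includes Lmna, the floxed gene itself, and besides it only Hdac3 and Setdb1 passed. The mean log2 level of the list lay between 6.59 and 6.73 on all 14 arrays.

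Some markers of other liver cells moved beside the genotype. Over both diets 42.9% of the macrophage list, 66.7% of the stellate list and 42.9% of the hepatocyte list passed, beside 9.43% of all genes. Of 7 monocyte and macrophage markers 3 rose over both diets: Cx3cr1 (2.74 ± 0.12), Ly6c2 (2.64 ± 0.25) and Trem2 (1.64 ± 0.16). The rest did not pass: Adgre1 (0.19 ± 0.21), Clec4f (0.10 ± 0.13), Csf1r (0.11 ± 0.14) and Cd68 (0.485 ± 0.18). On chow Adgre1 (-0.09 ± 0.29) and Csf1r (-0.18 ± 0.20) lay below 0. The mean log2 level of that list, the 3 that rose included, was 5.34 to 5.73 in WT, 5.39 to 5.87 in HET and 6.29 to 6.76 in KO on chow, and 5.66 to 5.92 in HET and 6.79 to 7.19 in KO on HFD. KO arrays were above all others. Of 6 stellate cell markers Col1a1 (1.36 ± 0.29) and Col3a1 (1.18 ± 0.16) rose and Lrat (-0.68 ± 0.16) and Reln (-0.40 ± 0.11) fell. Of 7 hepatocyte markers Cyp3a11, a drug-metabolizing cytochrome P450, rose (0.61 ± 0.16), while Cps1, of the urea cycle (-0.37 ± 0.07), and Tat, of tyrosine breakdown (-0.35 ± 0.09), fell. Of 8 lymphocyte and 4 germ cell markers none passed. Lymphocyte markers had a mean log2 level of 3.81 to 4.03 in KO on HFD and 3.04 to 4.05 in the other groups. With the age term Cx3cr1 still passed, Ly6c2 and Trem2 did not, and Col1a1 and Col3a1 turned below 0. That term raised the standard error of Col1a1 from 0.29 to 1.47. The part of these cell types in the Vmn1r values was not tested.

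The DNA before the receptor genes was poor in G and C. RefSeq entries of 300 bases, 250 before and 50 after the annotated start, were found for 154 of the 176 members. Their G + C content had a median of 35.7% (quartiles 32.0% and 37.6%), beside 52.7% over 27025 genes, and 131 of 154 lay under 40%, beside 10.6% of all genes. A CG dinucleotide was missing from 27.9% of the members' windows and from 5.78% of all, and the median number was 1 beside 7. The motif TATAAA, searched on both strands, occurred in 61 of 154 windows (39.6%), beside 14.2% of all. For olfactory receptor genes the median G + C content was 35.0% and the share with TATAAA 41.2%. In 131 of 154 members (85.1%) the annotated start was an ATG, the letters of a start codon, so these windows lie before the coding sequence and may miss the start of transcription. The same held for 73.2% of olfactory receptor genes but only 6.75% of all genes. The comparisons with all genes thus set unlike positions side by side, and the part of this in the differences was not tested.

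**Figure D5:**
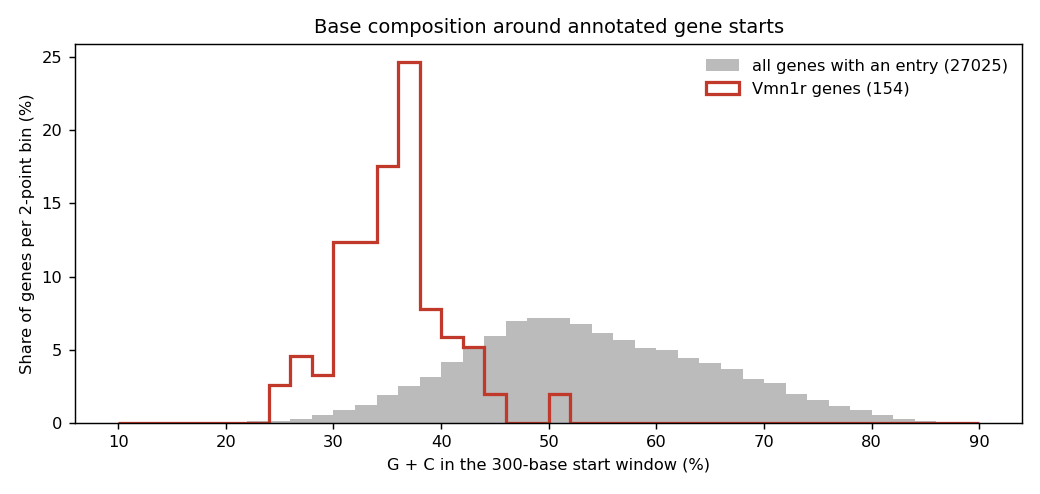
Share of genes (y axis, %) by G + C content of the 300-base window around the annotated start (x axis, %, bins of 2 points) for 154 Vmn1r genes (red line) and all 27025 genes with an entry (grey). The medians are 35.7% and 52.7%.

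Close relatives were common among these windows. Over the 250 bases before the start, 42 of 11781 pairs of members matched at 90% of positions or more, and 28 members were in such a pair. The pairs Vmn1r123 with Vmn1r160 (means 0.98 and 1.18) and Vmn1r47 with Vmn1r48 (means 0.92 and 1.03) were identical. Both members of these pairs were dim, in contrast to Vmn1r127 with Vmn1r94 and Vmn1r159 with Vmn1r122, in which 1 member was read above the median gene and the other was not. Whether the bright probe sets read these genes or another transcript was not tested.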

How the data were processed

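RNA of 14 livers was hybridized to Affymetrix whole-transcript arrays, 1 liver per array. The authors deposited log2 intensities per probe set, made with RMA per the submitters' processing notes, which also name limma and give no versions; a batch adjustment is not mentioned there. Of 41345 probe sets, 23521 had 1 symbol in the platform annotation, 1814 several and 16010 none. For each gene the probe set with the highest mean was kept, with no filter on level, which left 22180 genes. Members and gene lists were chosen with earlier results of these data known.

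A model with 1 mean for each of the 5 groups was fitted to all arrays with limma 3.58.1 in R 4.3.3 (9 residual degrees of freedom), with 8 contrasts and an F test. P values were adjusted by Benjamini and Hochberg over all genes, with 0.05 as the threshold for a call. The procedure was tested on simulated data. The small number of arrays limits the precision, and the p-values measure the spread between these livers. Named genes are Lmna, the 8 brightest members, the 8 largest differences each way over both diets, the 2 smallest p values each way per contrast, called members, Cidea, and called members of other lists. Members named from fits without 1 array, and the near relatives in sequence, were chosen after their values were seen. The alternatives were 2 variance settings, 3 ways of treating probe sets, a filter on level, 2 scalings, the array letter as a random block, age, other groupings, other thresholds and each array left out.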

Additional observations from a re-analysis of the deposited data

Results flagged for a closer look

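Vmn1r124 was flagged because its groups separated in opposite directions on the 2 diets. It was higher in all KO than in all HET livers on chow (0.15) and lower in all of them on HFD (-0.22), and the difference between these differences was -0.36 (limma, unadjusted p = 0.0335, adjusted p = 0.462). It did not pass after adjustment. Such an opposite separation was not particular to this gene, since 155 of all genes, 0.699%, showed it.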

How the results depend on the processing

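With an added linear term for age, the median member difference became -0.40 for KO against HET on chow, -0.33 for KO against WT, -0.22 for KO against HET on HFD, -0.32 over both diets, -0.0846 for HFD in HET, 0.081 for HFD in KO and 0.16 for the interaction, with 0 calls in each KO comparison. The same term turned Defb1 to -1.41 ± 1.02, Robo2 to -0.056 ± 0.56, Col1a1 to -2.50 ± 1.47 and Col3a1 to -0.50 ± 0.90, none of which passed then. Their standard errors without it were 0.21, 0.09, 0.29 and 0.16. The term rests on age differences among a few WT and HET livers and cannot separate age from genotype. Centring arrays on their median gave medians of -0.15, -0.10, -0.30 and -0.21 for the same 4 KO comparisons, -0.0949 for HFD in KO and -0.14 for the interaction, with 25 calls on HFD, 42 over both diets and 4 by the F test. With only genes above the median level, which leaves 3 members, the medians were 0.0554 for KO against HET on chow, -0.13 for KO against WT, -0.46 for HET against WT and -0.29 for the interaction, and 0 members passed in any comparison or by the F test. The trended and robust prior and array weights each gave 2 calls on HFD. The share of all genes that passed is not given for these settings, nor for the F test on centred arrays. Those counts thus have no background beside them. Fits of only the arrays compared gave 0 calls against WT and 0 over both diets, a second quantile normalization 0 over both diets, and WT and HET as 1 group 0 against WT. Without adjustment the calls were 7, 3, 8, 13, 13, 11, 7 and 10 in the 8 comparisons, in the order KO against HET on chow, KO against WT, HET against WT, KO against HET on HFD, over both diets, HFD in HET, HFD in KO and interaction, and 6 by the F test. At an adjusted p under 0.10 they were 3 on HFD, 3 over both diets and 2 by the F test. The shares of all genes at this looser threshold are not given, so these counts cannot be weighed against a background. At the stricter threshold used for calls, 7.56% of all genes passed on HFD, 9.43% over both diets and 6.91% by the F test. Leaving out each array in turn gave 0 to 2 calls against WT, 0 to 1 for HET against WT, 0 to 2 on HFD, 0 to 2 over both diets and 1 to 3 by the F test, and medians of -0.08 to 0.0127 for the interaction. Causes were not tested. Leaving out the 3 brightest members, chosen after seeing the data, changed no count. Of the other counts and medians 206 and 192 stayed within the limits set. No paired analysis was possible because the labels name separate livers and do not say that a digit shared by array names, such as G1 and F1, marks a litter, batch or day. Dim signal limits the size of any difference, and only 2 WT livers stand behind the comparisons with WT.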
